A study of Mus musculus with 30 samples.

Results

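The insulin-like growth factor (IGF) genes described here are the ligands Igf1 and Igf2, the receptor Igf1r, the binding proteins Igfbp2 to Igfbp7 and the protease Pappa. They are 10 of the 55487 genes counted in each library and were taken by gene symbol. No measured value served as a filter, but the genes were chosen with earlier results of these data known. Their expression was compared across the 8 combinations of cell fraction and treatment. The libraries come from organoid cultures of wild type (WT) C57BL/6J mice, in which freshly isolated adult Epcam+ lung epithelial cells of 4 mice were mixed with CCL206 fibroblasts. CCL206 is a mouse lung fibroblast line, the same line in every culture, and its proliferation had been stopped with mitomycin C. Each culture held 300000 cells of either kind in Matrigel, and the culture medium of all groups contained insulin and epidermal growth factor. Exposure lasted 72 hours. The vehicle control was compared with 3 treatments. EC is an exacerbation cocktail of IL-1β, IL-6, TNF-α and IL-8, in place of which the study's methods give KC for mouse cells. IPFc is a cocktail of 9 factors, namely the interleukins IL-1β, IL-33, IL-13, IL-4 and IL-8, the chemokine CCL2, TNFα, TSLP and TGF-β, and the remaining treatment was TGF-β alone at 2 ng/ml. The cells were then separated again with Epcam microbeads and the fractions were sequenced as bulk RNA. The 30 libraries comprised 15 fibroblast libraries (3 vehicle, 4 EC, 4 IPFc, 4 TGF-β) and 15 epithelial libraries (4 vehicle, 4 EC, 4 IPFc, 3 TGF-β). The fibroblast vehicle library of mouse 2 and the epithelial TGF-β library of mouse 1 were not analysed here.

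As background, IGF1 and IGF2 are secreted growth factors that activate the IGF1 receptor, a tyrosine kinase that signals through PI3K, AKT and mTOR. In tissue, most IGF is held by IGF binding proteins, which limit or prolong its access to the receptor. PAPP-A is a secreted protease that cuts IGFBP4, its main substrate, and IGFBP5 and thereby releases IGF, and the stanniocalcins STC1 and STC2 inhibit it. IGFBP7 binds IGF weakly, binds insulin, and is a secreted protein often seen in senescent cells. In the lung, mesenchymal cells are a known source of IGF1 for the epithelium.

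In short, under vehicle Igf1, Pappa and Igfbp4 were higher in fibroblast libraries and Igfbp3 was higher in epithelial libraries. With TGF-β, Igfbp7 rose 4.76-fold in fibroblast and 12.35-fold in epithelial libraries, and Pappa and Igfbp4 rose in both as well. Igfbp6 fell with all 3 treatments in epithelial libraries, to 0.572, 0.538 and 0.316 of the vehicle level with EC, IPFc and TGF-β, and did not pass the test with any in fibroblast libraries. In fibroblast libraries EC was followed by less Pappa and more Igfbp3. Several of these values moved together with the share of RNA that each library held from the other fraction, which is given beside them in the sections below. After that share was subtracted, none of these Igfbp4 differences was called, nor were the Pappa changes in fibroblast libraries. The Igfbp6 falls with EC and IPFc were not called either, and Igfbp3 in fibroblast libraries could no longer be tested against vehicle.

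Promoters of 4 binding proteins are shown because these genes took different courses with TGF-β: Igfbp7 and Igfbp4 rose in both fractions, Igfbp3 rose in epithelial and fell in fibroblast libraries, and Igfbp6 fell in epithelial libraries. The sequences are the 250 bases before a start site in a promoter set (build GRCm38.p6) that lists a start for 9 of the 10 genes. For Igfbp7 and Igfbp6 they end at the edge of the RefSeq gene. The Igfbp4 and Igfbp3 windows lie inside the RefSeq gene spans (chr11:99040005-99052655 and chr11:7206086-7215498). Igfbp7 lies at chr5:77408046-77408295, minus strand, Igfbp4 at chr11:99040994-99041243, plus strand, Igfbp3 at chr11:7213924-7214173, minus strand and Igfbp6 at chr15:102143936-102144185, plus strand. Capitals mark matches on either strand to the SMAD box CAGAC, the AP-1 motif TGANTCA, the GC box GGGCGG and the TATA box TATAAA.
Igfbp7: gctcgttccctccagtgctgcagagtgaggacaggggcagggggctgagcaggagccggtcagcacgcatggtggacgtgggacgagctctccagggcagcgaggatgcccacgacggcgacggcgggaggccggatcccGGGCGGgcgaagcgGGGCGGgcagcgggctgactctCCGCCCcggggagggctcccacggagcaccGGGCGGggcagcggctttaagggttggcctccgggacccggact
Igfbp4: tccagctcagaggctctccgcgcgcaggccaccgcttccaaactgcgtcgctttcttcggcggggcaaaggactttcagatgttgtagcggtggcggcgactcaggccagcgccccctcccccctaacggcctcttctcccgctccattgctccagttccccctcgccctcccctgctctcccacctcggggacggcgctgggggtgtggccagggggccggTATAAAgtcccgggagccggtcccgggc
Igfbp3: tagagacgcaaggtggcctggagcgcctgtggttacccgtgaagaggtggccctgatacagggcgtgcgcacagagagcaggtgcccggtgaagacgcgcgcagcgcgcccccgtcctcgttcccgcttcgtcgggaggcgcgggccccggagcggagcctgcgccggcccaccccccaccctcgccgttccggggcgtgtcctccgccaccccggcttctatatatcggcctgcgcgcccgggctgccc
Igfbp6: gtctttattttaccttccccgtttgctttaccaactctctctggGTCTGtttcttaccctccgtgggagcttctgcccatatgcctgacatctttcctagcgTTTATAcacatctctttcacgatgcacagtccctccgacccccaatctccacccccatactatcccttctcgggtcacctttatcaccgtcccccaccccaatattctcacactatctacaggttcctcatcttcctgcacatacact
The Igfbp7 window held 4 GC boxes, 44 to 110 bases before the start, and the Igfbp4 window held a TATA box 28 bases before it. The Igfbp6 window held 1 SMAD box and 1 TATA box on the opposite strand, and the Igfbp3 window held none of the 4 motifs. Among 32851 windows of the same length, 42.2% held the SMAD box, 6.75% the AP-1 motif, 32.7% the GC box and 12.4% the TATA box. These matches describe letters and are not binding sites.

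Before the members are described, 2 features of the libraries matter. The libraries held 5113828 to 20317181 counts (median 13936245 in fibroblast and 13750329 in epithelial libraries). The fibroblast EC library of mouse 1 stood apart, with the lowest total and with long transcripts low against short ones, by -1.15 on the log2 scale against -0.27 to 0.37 in the other 14 fibroblast libraries. In epithelial libraries this value was 0.19, 0.36 and 0.34 with TGF-β (mice 2 to 4), against -0.10 to 0.07 with vehicle. It was -0.44 in the epithelial EC library of mouse 4. The part of this length profile in the results was not tested. The fractions carried their markers. Col1a1 ranged from 799 to 4915 CPM (counts scaled to the total of each library) in fibroblast and from 53.9 to 1182 CPM in epithelial libraries, and Epcam from 210 to 410 CPM in epithelial and from 3.00 to 111 CPM in fibroblast libraries. Ptprc, which defines leukocytes, reached at most 1.10 CPM, and Pecam1, which defines endothelial cells, at most 2.64 CPM. Of 25 immune markers, 15 stayed under 1 CPM in every fibroblast library and 19 in every epithelial library, and of 18 endothelial markers 12 and 11 did. Other listed genes were higher, with Cd14 at up to 473 CPM, Lyz2 at up to 154 CPM and Esam at up to 25.9 CPM. The summed immune list was higher with EC (438 to 577 CPM in epithelial and 245 to 338 CPM in fibroblast libraries) than with vehicle (288 to 335 and 133 to 173 CPM) and lower with TGF-β (145 to 222 and 29.3 to 43.3 CPM). Of 9 mesothelial markers, 7 stayed under 1 CPM in every fibroblast and 6 in every epithelial library, while Msln reached 937 CPM and Upk1b 329 CPM. The summed list of 12 pericyte and smooth muscle markers lay at 236 to 321 CPM with vehicle and at 504 to 598 CPM with TGF-β in fibroblast libraries, and at 22.0 to 41.9 CPM and 165 to 171 CPM in epithelial libraries. The part of these lists in the results was not tested. The fractions were not pure, however. The share of epithelial RNA in a fibroblast library, estimated as the median ratio of epithelial marker CPM to the epithelial library of the same culture, was 24.0% ± 8.83 (SD, n = 3) with vehicle, 47.8% ± 10.9 (n = 4) with EC, 22.1% ± 10.4 (n = 4) with IPFc and 2.65% ± 1.67 (n = 4) with TGF-β. The share of fibroblast RNA in epithelial libraries was 6.01% ± 2.43 (n = 4), 11.7% ± 4.74 (n = 4), 11.4% ± 5.02 (n = 4) and 29.8% ± 2.71 (n = 3), in the same order. The amount of a transcript carried over was then taken as this share times its level in the partner library of the culture. Both values assume that the cells of a fraction did not themselves express the markers of the other fraction. Whether a treatment, such as TGF-β in epithelial cells, changed that was not tested. In such bulk samples, fewer cells of a type and less RNA per cell cannot be told apart.

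The first question was which fraction expressed each member under vehicle. Of the 9 members tested in all 30 libraries, 1 was higher and 5 were lower in epithelial than in fibroblast libraries, at a background of 47.1% of all genes called in this comparison. Igf1 was at 7.55, 8.05 and 5.83 CPM in the fibroblast libraries of mice 1, 3 and 4 and between 0.0984 and 0.726 CPM in the 4 epithelial libraries. Pappa was at 12.4, 26.1 and 18.1 CPM and between 0.323 and 1.09 CPM, respectively. Neither gene overlapped between the fractions, and the log2 differences (epithelial minus fibroblast) were -4.55 ± 0.76 (SE) for Igf1 (adjusted p = 1e-04, edgeR) and -4.84 ± 0.55 for Pappa (adjusted p = 1.83e-06). Igfbp4 reached 433, 368 and 451 CPM in fibroblast and 32.2 to 52.7 CPM in epithelial libraries, a log2 difference of -3.06 ± 0.24 (adjusted p = 5.61e-08). Igf1r, present on both sides, was lower in epithelial libraries by -0.89 ± 0.19 on the log2 scale (adjusted p = 0.000716), at 60.8 ± 7.82 (SD, n = 4) against 119 ± 10.3 CPM (n = 3). Igfbp7 was also lower, by -1.13 ± 0.33 (adjusted p = 0.00985), a call that was lost without mouse 4 (-0.71, adjusted p = 0.1). Igfbp3, the main carrier of IGF in blood, went the other way, at 19.5 to 35.1 CPM in epithelial and 1.39 to 2.76 CPM in fibroblast libraries, a log2 difference of 3.78 ± 0.49 (adjusted p = 7.33e-06). Igfbp6, which prefers IGF2 as its ligand, did not pass the test (-0.16 ± 0.24, adjusted p = 0.605). After the share of RNA of the other fraction had been subtracted from every library, Igfbp4 (-4.56, adjusted p = 0.0665) and Igfbp7 (-1.46, adjusted p = 0.0899) were no longer called.

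Igf2 and Igfbp2 were close to absent. Igf2 had 0 counts in all 15 fibroblast libraries, 211695712 counts together, which allows a pooled level of up to 0.0142 CPM, and at most 2 counts in an epithelial library. Igfbp2 had at most 2 counts in a fibroblast and 8 in an epithelial library. Neither passed the mean count of 1 in fibroblast libraries, so 8 members were tested there, and in epithelial libraries 9 were tested, without Igf2. Such limits cover counting error only.

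Levels can be compared between genes only per length, and Igfbp4 then led the binding proteins of fibroblasts. In fibroblast vehicle libraries it reached 94.4 ± 9.88 CPM per kb of exon (SD, n = 3), against 27.2 ± 6.17 for Igfbp6, 13.1 ± 4.00 for Igfbp7 and 0.564 ± 0.193 for Igfbp3. Of the summed level of the 6 binding proteins, Igfbp4 made up 69.9% ± 2.21. In epithelial vehicle libraries Igfbp6 led with 49.3% ± 3.61 (n = 4), followed by Igfbp4 with 21.0% ± 4.37, Igfbp3 with 17.1% ± 3.37 and Igfbp7 with 11.7% ± 2.61. This order rests on lengths that join all annotated exons of a gene (1380 bases for Igfbp6, 4422 for Igfbp4, 5449 for Igfbp7). Without them, mean levels were 43.0 CPM for Igfbp4, 31.5 for Igfbp6, 29.5 for Igfbp7 and 28.4 for Igfbp3. Which transcripts the cells used was not determined. With TGF-β the epithelial makeup was another: Igfbp7 made up 49.6% ± 4.20 (n = 3) and Igfbp6 5.03% ± 0.752. These values are not corrected for RNA of the other fraction. With TGF-β the epithelial level was 0.895 to 1.12 times the amount carried over for Igfbp4 and 0.700 to 1.18 times for Igfbp6. With vehicle it was 1.26 to 2.63 times that amount for Igfbp4. The summed level was 46.4 ± 3.19 CPM per kb with vehicle and 148 ± 7.36 with TGF-β in epithelial libraries, and 135 ± 18.1 and 229 ± 40.4 in fibroblast libraries, and the ranges did not overlap in either fraction.

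**Figure D1:**
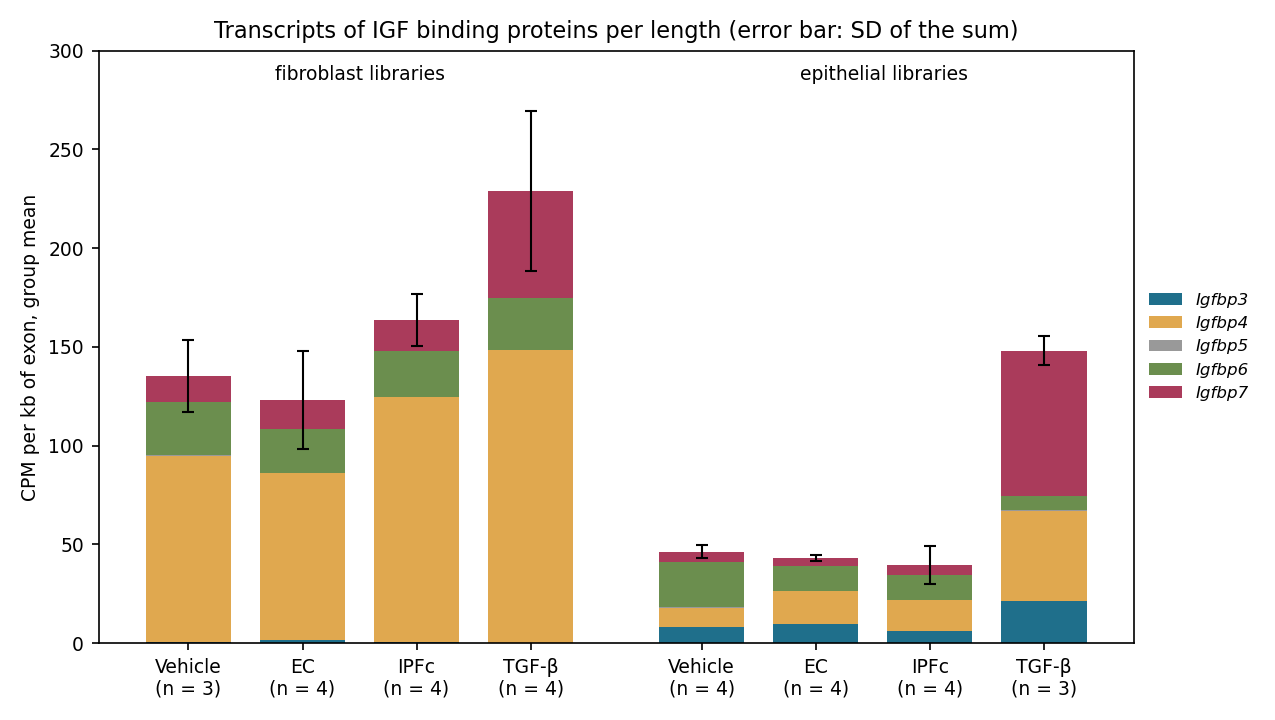
Stacked bars show the mean CPM per kb of exon of Igfbp3 to Igfbp7 in each group (Igfbp2, at most 0.198% of the mean sum, is not drawn), and the error bar is the SD of the sum over libraries. Igfbp4 fills most of each fibroblast bar, and Igfbp7, at 73.3 of 148 CPM per kb, is the tallest segment of the epithelial TGF-β bar. The bars are not corrected for RNA of the other fraction.

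**Figure D2:**
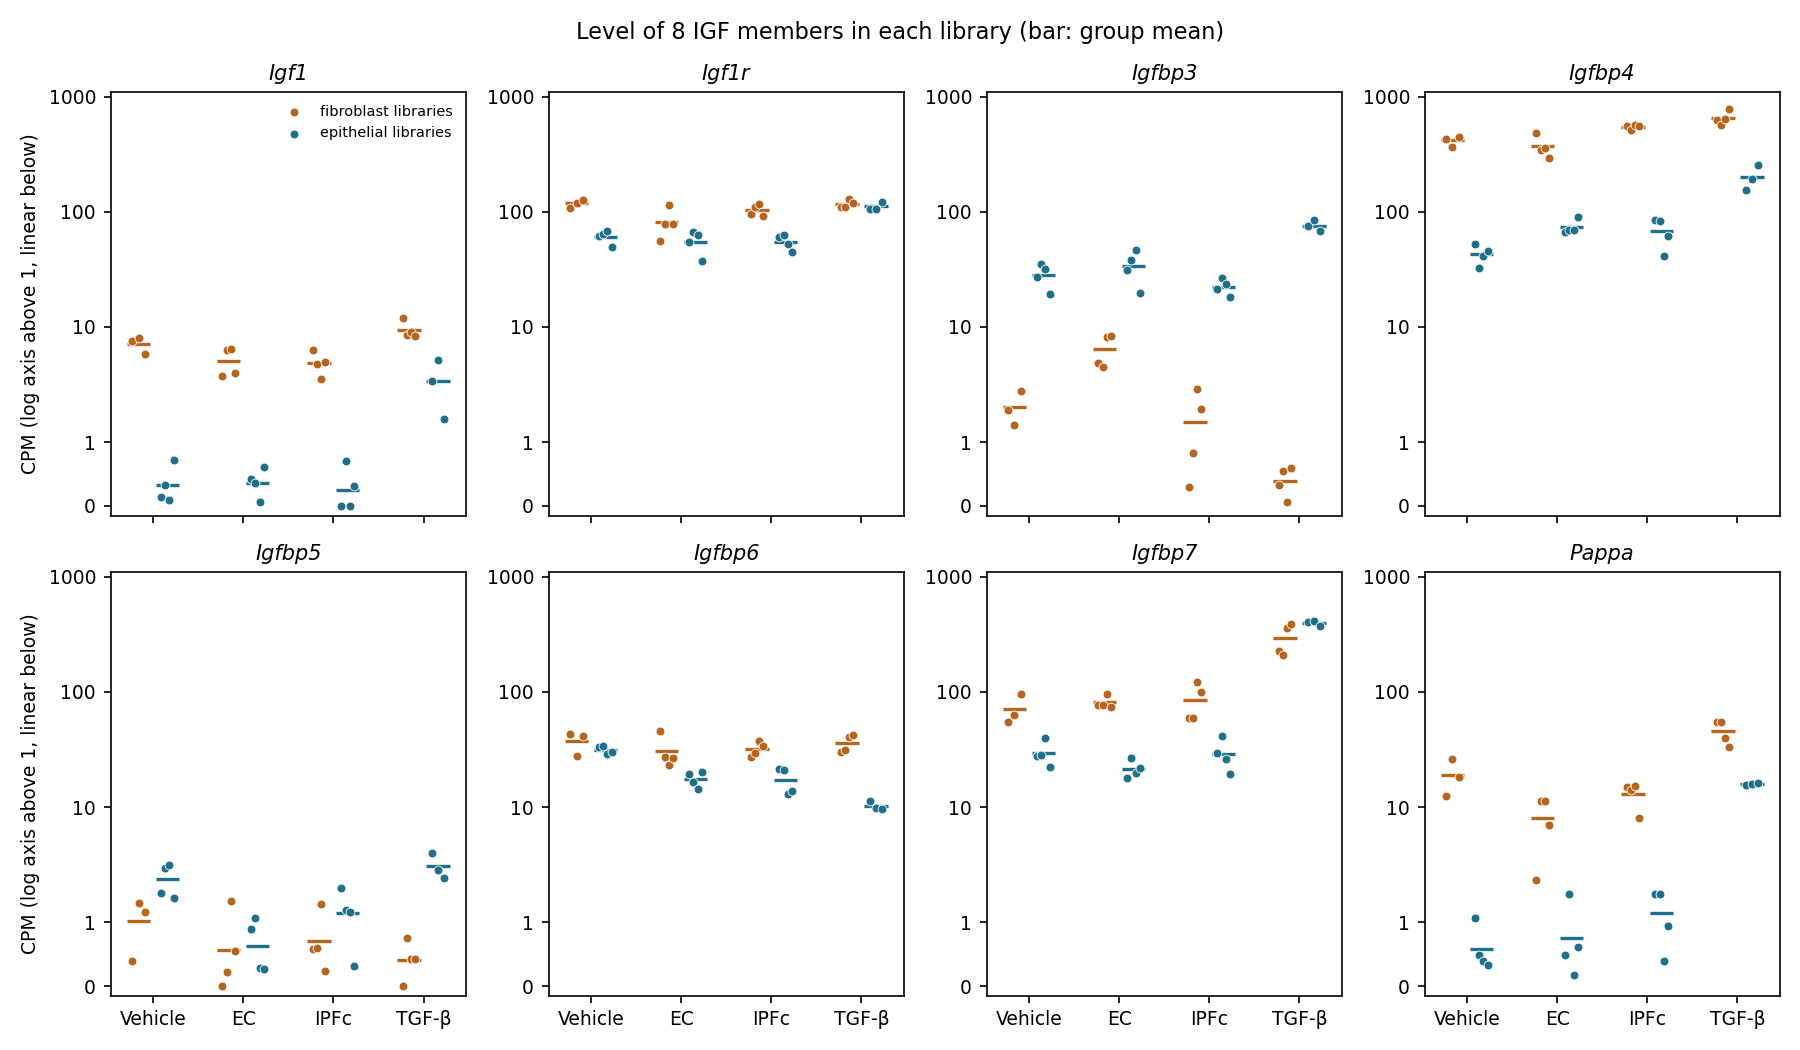
Each point is 1 library, with CPM on an axis that is logarithmic above 1 and linear below, and short bars mark group means of 3 or 4 libraries. Within each treatment Igf1, Igfbp4 and Pappa sit higher in fibroblast libraries and Igfbp3 sits higher in epithelial libraries, and with TGF-β Igfbp7 lies above its vehicle level in both.

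The next question was what TGF-β did to the fibroblast libraries. Igfbp7, Pappa and Igfbp4 rose and Igfbp3 fell, so 4 of 8 members tested were called, at a background of 19.2% of all genes. The median log2 change of the 8 was 0.32, against -0.02 over all genes tested. Igfbp7 was at 55.0, 62.6 and 96.0 CPM with vehicle (mice 1, 3 and 4) and at 225, 208, 363 and 387 CPM with TGF-β (mice 1 to 4). The groups did not overlap, and the log2 change was 2.25 ± 0.21 (adjusted p = 3.31e-07). Pappa was at 55.3, 54.7, 40.0 and 33.2 CPM with TGF-β, each above the highest vehicle library at 26.1 CPM, a log2 change of 1.33 ± 0.29 (adjusted p = 0.00327). Igfbp4, the substrate of that protease, was at 625, 568, 646 and 785 CPM with TGF-β and at most 451 CPM with vehicle, a log2 change of 0.81 ± 0.16 (adjusted p = 0.00137).

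The share of epithelial RNA was 2.65% with TGF-β against 24.0% with vehicle. After the share had been subtracted from each library, Igfbp7 still rose by 1.98 (adjusted p = 0.00188), whereas Pappa was at 1.00 (adjusted p = 0.339) and Igfbp4 at 0.46 (adjusted p = 0.243), with 718 genes called in place of 3457. Igf1 was at 11.9, 8.59, 8.95 and 8.28 CPM with TGF-β, all above the vehicle libraries, but its log2 change of 0.51 ± 0.23 did not pass (adjusted p = 0.147). Without the EC library of mouse 1, which shares the fit, it passed (0.56, adjusted p = 0.0379). The changes of Igf1r (0.09 ± 0.15, adjusted p = 0.74) and Igfbp6 (0.13 ± 0.23, adjusted p = 0.78) were smaller than their errors. Igfbp5 lay between 0 and 1.52 CPM in all 15 fibroblast libraries and was called in none of the 6 fibroblast comparisons by edgeR.

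Igfbp3 in fibroblast libraries followed the epithelial share. It was at 0.325, 0.550, 0.0613 and 0.600 CPM with TGF-β, a log2 change of -2.18 ± 0.60 against vehicle (adjusted p = 0.0148), a call that was lost without mouse 4 (-2.23, adjusted p = 0.144). With EC it was at 4.89, 4.52, 8.15 and 8.35 CPM, all above the 1.39 to 2.76 CPM of vehicle, a log2 change of 1.81 ± 0.49 (adjusted p = 0.0337). The order of the groups was that of the share of epithelial RNA, highest with EC and lowest with TGF-β. In 14 of 14 fibroblast libraries with an epithelial library of the same culture, the measured level was below the amount carried over. It was 0.0611 to 0.659 times that amount, so the estimate was too high for this gene and the subtraction removed too much. After subtraction Igfbp3 no longer reached the mean count of 1 needed for a test in fibroblast libraries.

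**Figure D3:**
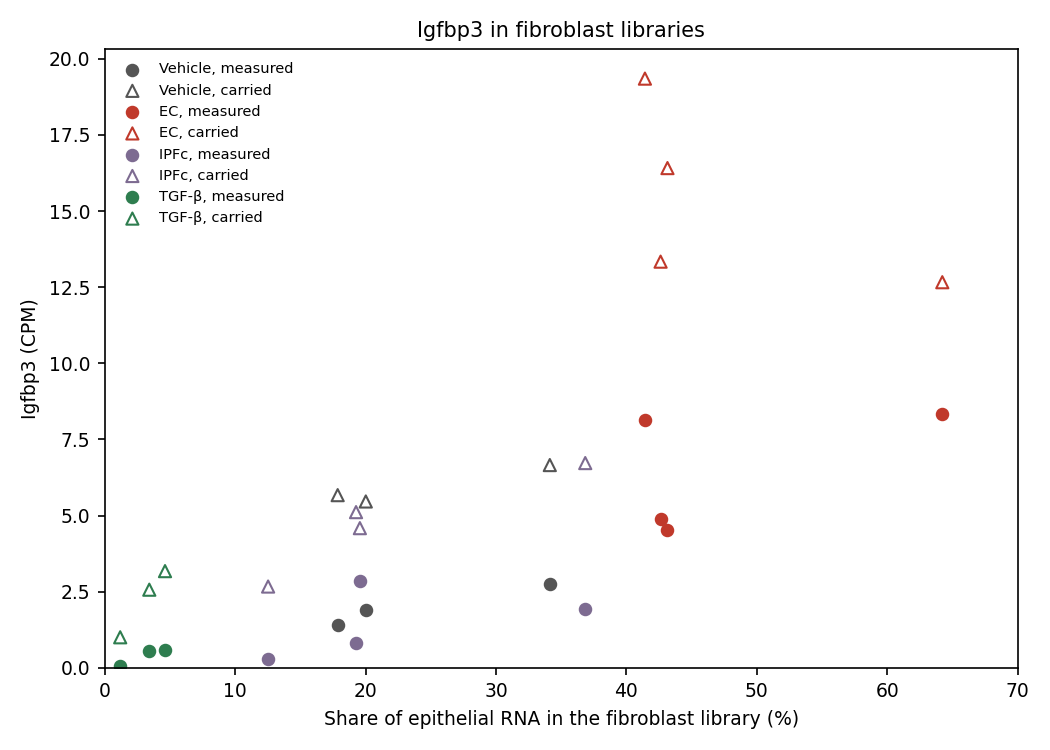
The x axis gives the share of epithelial RNA in each of 14 fibroblast libraries (%), and the y axis gives Igfbp3 in CPM. Filled circles are the measured levels and open triangles the amount carried over from the epithelial library of the same culture, and every circle lies below its triangle.

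In fibroblast libraries Pappa was lower with EC than with vehicle, opposite in direction to its change with TGF-β. Igfbp3 rose and Pappa and Igf1r fell, 3 of 8 members tested, at a background of 7.11% of all genes. Pappa was at 2.35, 11.3, 11.4 and 6.94 CPM with EC, each below the lowest vehicle library at 12.4 CPM, a log2 change of -1.23 ± 0.30 (adjusted p = 0.0211). The lowest value came from the EC library of mouse 1, which was low in long transcripts, and without that library the log2 change was -0.97 (adjusted p = 0.00376). Igf1r was at 55.7, 78.4, 114 and 78.8 CPM with EC and at 108, 120 and 128 CPM with vehicle, so the groups overlapped. Its log2 change of -0.50 ± 0.15 passed narrowly (adjusted p = 0.0493) and no longer passed without that library (-0.38, adjusted p = 0.0581) or without any 1 of the 4 mice (-0.69 to -0.40, adjusted p = 0.0731 to 0.336). The share of epithelial RNA was 47.8% with EC against 24.0% with vehicle, and after its subtraction neither Pappa (-0.86, adjusted p = 0.685) nor Igf1r (-0.39, adjusted p = 0.763) was called, with 31 of all genes called in place of 1284. The calls of Igfbp3 and Pappa were also lost without mouse 3 (adjusted p = 0.143 and 0.182) or without mouse 4 (0.262 and 0.212), and without the mouse as a block (adjusted p = 0.118 and 0.112).

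With IPFc, 0 of 8 members were called in fibroblast libraries by edgeR and 0 by DESeq2, at a background of 0.449% of all genes called by edgeR. An unadjusted p under 0.05 was found for 2 of the 8, and the share of all genes at that threshold was not computed. Igfbp4 was at 555, 518, 566 and 556 CPM, all above the vehicle libraries, with a log2 change of 0.48 ± 0.16 (adjusted p = 0.429). Without the EC library of mouse 1 in the fit it passed (0.46, adjusted p = 0.0386). Pappa was at 14.9, 14.1, 15.3 and 7.98 CPM, within the range of vehicle or below it (-0.58 ± 0.29, adjusted p = 0.816), and it passed without mouse 1 (-0.94, adjusted p = 0.00705).

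IPFc contains TGF-β, and its fibroblast libraries were therefore also set against those of TGF-β alone. Igfbp7 (-1.88 ± 0.18, adjusted p = 5.81e-07), Pappa (-1.91 ± 0.27, adjusted p = 4.41e-05) and Igf1 (-1.03 ± 0.21, adjusted p = 0.00183) were lower with IPFc and Igfbp3 was higher (1.80 ± 0.57, adjusted p = 0.0384), 4 of 8 at a background of 17.4%. Igf1 was at 6.30, 4.72, 3.52 and 4.96 CPM with IPFc, each below the lowest TGF-β library at 8.28 CPM. The share of epithelial RNA was 22.1% with IPFc against 2.65% with TGF-β. After its subtraction Igfbp7 was still lower with IPFc (-1.58, adjusted p = 0.00346), and Pappa (-1.59, adjusted p = 0.0662) and Igf1 (-0.68, adjusted p = 0.307) were no longer called. The dose of TGF-β within IPFc was not given in the labels, so the doses may differ. The Igfbp3 call was lost without mouse 3 (0.85, adjusted p = 0.378) and without mouse 4 (1.89, adjusted p = 0.2). Against EC, IPFc libraries held more Igfbp4 (0.54 ± 0.15, adjusted p = 0.0272) and less Igfbp3 (-2.19 ± 0.44, adjusted p = 0.00404), 2 of 8 at a background of 10.4%. The Igfbp4 call was lost without mouse 2 (0.51, adjusted p = 0.113), mouse 3 (0.49, adjusted p = 0.147) or mouse 4 (0.45, adjusted p = 0.128), and the Igfbp3 call without mouse 4 (-2.22, adjusted p = 0.072). After subtraction, with shares of 47.8% with EC and 22.1% with IPFc, the Igfbp4 difference was 0.17 (adjusted p = 0.893). EC against TGF-β called 6 of 8 at a background of 35.4%. Pappa (-2.55 ± 0.28, adjusted p = 1.74e-06), Igfbp7 (-1.85 ± 0.18, adjusted p = 4.16e-07), Igf1 (-0.89 ± 0.21, adjusted p = 0.00363), Igfbp4 (-0.87 ± 0.15, adjusted p = 0.000175) and Igf1r (-0.59 ± 0.13, adjusted p = 0.00225) were lower with EC and Igfbp3 was higher (3.99 ± 0.52, adjusted p = 1.37e-05). After subtraction Igfbp7 (-1.14, adjusted p = 0.0126) and Pappa (-1.86, adjusted p = 0.0235) were still lower with EC than with TGF-β, whereas Igf1 (-0.12, adjusted p = 0.849), Igfbp4 (-0.16, adjusted p = 0.635) and Igf1r (-0.27, adjusted p = 0.54) were no longer called.

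Turning to the epithelial libraries, TGF-β changed 7 of 9 members tested, at a background of 41.1% of all genes, 6 upward and 1 downward. The median log2 change of the 9 was 2.17, against 0.03 over all genes. This median is the value of Igfbp4, whose level stood near the share of fibroblast RNA, as given below. Igfbp7 rose from 27.6, 28.4, 39.8 and 22.4 CPM with vehicle (mice 1 to 4) to 406, 416 and 376 CPM with TGF-β (mice 2 to 4), a log2 change of 3.63 ± 0.17 (adjusted p = 1.96e-12). It lay above the fibroblast library of the same culture in mice 2 and 3 (195% and 115% of it) and at 97.0% in mouse 4, while the share of fibroblast RNA was 26.8% to 32.1%. The measured level was 3.03 to 6.38 times the amount carried over. After subtraction the rise was 3.79 (adjusted p = 2.7e-06).

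Igfbp3 and Igf1r also rose, and both were still called after the share had been subtracted. Igfbp3 was at 75.0, 84.3 and 68.6 CPM with TGF-β and at 27.3, 35.1, 31.7 and 19.5 CPM with vehicle, without overlap, and the log2 change was 1.32 ± 0.14 (adjusted p = 1.33e-07). No fibroblast TGF-β library held more than 0.600 CPM of it, and the estimated amount carried over was at most 0.192 CPM. Igf1r was at 107, 106 and 122 CPM with TGF-β and at 49.9 to 68.2 CPM with vehicle, a log2 change of 0.81 ± 0.13 (adjusted p = 3.79e-05) and of 0.84 after subtraction (adjusted p = 0.0022). Igfbp3 after subtraction rose by 1.75 (adjusted p = 3.17e-06).

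For Pappa, Igfbp4 and Igf1 the epithelial level stood near the share of fibroblast RNA. Pappa was at 15.4, 16.0 and 16.1 CPM with TGF-β and between 0.323 and 1.09 CPM with vehicle, a log2 change of 4.92 ± 0.43 (adjusted p = 1.21e-08). These levels were 28.2%, 39.9% and 48.4% of the fibroblast library of the same culture, or 0.920 to 1.51 times the amount carried over. After subtraction Pappa was still called (8.37, adjusted p = 0.0203), a value that rests on levels near 0 with vehicle. Igfbp4 was at 156, 194 and 253 CPM with TGF-β and at 32.2 to 52.7 CPM with vehicle (2.17 ± 0.19, adjusted p = 8.55e-09), which was 27.4% to 32.2% of the fibroblast library and 0.895 to 1.12 times the amount carried over. After subtraction its direction turned and it was not called (-2.21, adjusted p = 0.179). Igf1 was at 3.40, 5.18 and 1.57 CPM, against at most 0.726 CPM with vehicle, a log2 change of 3.40 ± 0.80 (adjusted p = 0.00172) that was not called after subtraction (4.17, adjusted p = 0.191). Its levels were 0.592 to 2.16 times the amount carried over. Igfbp5 was not called (0.35 ± 0.40, adjusted p = 0.521), and Igfbp2, with 8 counts or fewer in every library, passed only without mouse 3 (4.94, adjusted p = 0.0206).

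**Figure D4:**
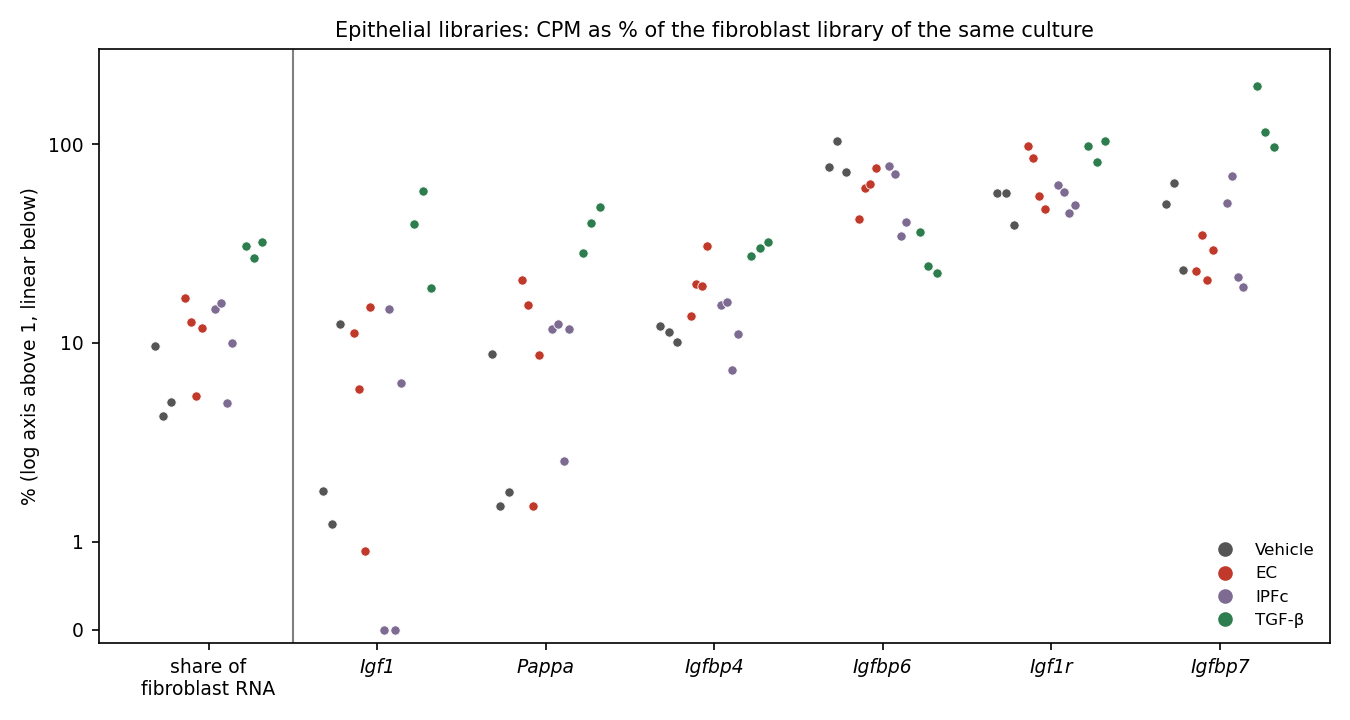
For each epithelial library with a partner (3 vehicle, 4 EC, 4 IPFc, 3 TGF-β), the y axis gives the member's CPM as a percentage of its CPM in the fibroblast library of the same culture, on an axis that is logarithmic above 1, and the first column gives the share of fibroblast RNA. With TGF-β, Igfbp4 (27.4% to 32.2%) lies beside the share (26.8% to 32.1%), and Igfbp7 (97.0% to 195%) lies above it.

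Igfbp6 was the member that fell, and it did so with every treatment in epithelial libraries. It was at 33.2, 34.2, 28.7 and 29.8 CPM with vehicle, 19.2, 16.4, 14.5 and 20.2 CPM with EC, 21.2, 20.9, 12.9 and 13.7 CPM with IPFc, and 11.4, 9.80 and 9.55 CPM with TGF-β. No treated library reached the lowest vehicle library. The log2 changes were -0.81 ± 0.14 with EC (adjusted p = 0.000712), -0.89 ± 0.14 with IPFc (adjusted p = 0.00032) and -1.66 ± 0.16 with TGF-β (adjusted p = 4.46e-08). Each call held without any 1 of the mice and without the block. With TGF-β the measured level was 0.700 to 1.18 times the amount carried from fibroblasts, whose own Igfbp6 stayed between 23.0 and 46.0 CPM in all 15 libraries. After subtraction the fall with TGF-β was still called (-5.09, adjusted p = 3.22e-05), and those with EC (-0.95, adjusted p = 0.368) and IPFc (-1.02, adjusted p = 0.43) were not called. With TGF-β, 2 of the 3 libraries lay under the carried amount and were set to 0 by the subtraction. The size of the TGF-β fall after subtraction therefore rests on that floor.

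EC changed 3 of 9 members in epithelial libraries, Igfbp6, Igfbp5 and Igfbp4, at a background of 4.41% of all genes. Igfbp5, a binding protein of the extracellular matrix, fell from 1.77, 2.96, 3.15 and 1.61 CPM with vehicle to 0.900, 1.09, 0.286 and 0.259 CPM, without overlap (-1.98 ± 0.42, adjusted p = 0.00641). These are low counts, and the call was lost without mouse 3 (-1.54, adjusted p = 0.117). Igfbp4 was at 66.5, 68.9, 69.3 and 90.3 CPM, all above vehicle (0.82 ± 0.17, adjusted p = 0.00486), with a share of fibroblast RNA of 11.7% against 6.01% with vehicle, and it was not called after subtraction (0.68, adjusted p = 0.904), nor was Igfbp5 (-2.02, adjusted p = 0.0688). Igfbp7 was lower without being called (-0.43 ± 0.16, adjusted p = 0.173), and it passed without mouse 4 (-0.58, adjusted p = 0.0303).

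IPFc changed 2 of 9 members in epithelial libraries, at a background of 4.1% of all genes: Igfbp6, given above, and Igfbp4, which was at 85.6, 83.3, 41.5 and 61.4 CPM (0.66 ± 0.17, adjusted p = 0.03). The library of mouse 3 lay within the vehicle range, and its share of fibroblast RNA, 4.98%, was the lowest of the 4 IPFc libraries. The Igfbp4 call was lost without mouse 1 (0.64, adjusted p = 0.109), without mouse 2 (0.40, adjusted p = 0.348) and without the block (0.65, adjusted p = 0.146), and the direction turned after subtraction (-1.995, adjusted p = 0.706). Igfbp7, which responded to TGF-β alone, was at 19.2 to 41.2 CPM with IPFc and at 22.4 to 39.8 CPM with vehicle (-0.04 ± 0.16, adjusted p = 0.962).

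**Figure D5:**
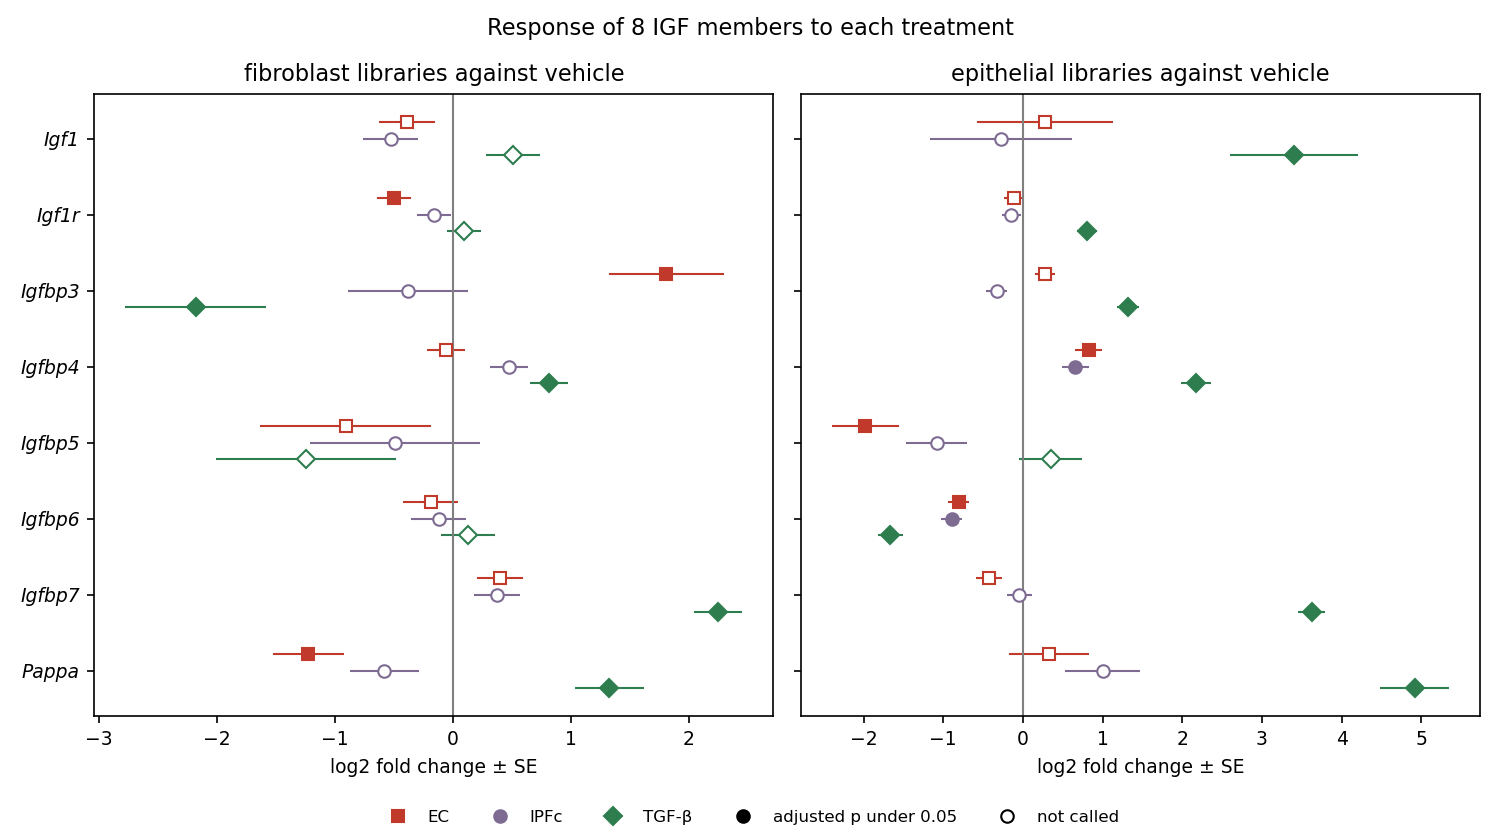
Points give the log2 fold change against vehicle and bars its SE, for 8 members in fibroblast (left) and epithelial libraries (right), with filled symbols for an adjusted p under 0.05. Igfbp7 lies to the right with TGF-β in both, and Igfbp3 has opposite signs between the fractions with TGF-β.

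Whether the fractions differed in their response was tested as an interaction. For TGF-β, 4 of 9 members differed, at a background of 13.4% of all genes, and the median of all genes was 0.21. The epithelial minus the fibroblast response was 3.68 ± 0.78 for Igfbp3 (adjusted p = 0.00428), 3.34 ± 0.69 for Pappa (adjusted p = 0.00344), 1.22 ± 0.31 for Igfbp4 (adjusted p = 0.0131) and -1.81 ± 0.34 for Igfbp6 (adjusted p = 0.0018). For Igf1 (3.02 ± 0.98, adjusted p = 0.0505) and Igfbp7 (1.41 ± 0.46, adjusted p = 0.0529) the difference did not pass, and without the fibroblast EC library of mouse 1, which shares the fit, Igf1 (3.03, adjusted p = 0.0406), Igfbp7 (1.42, adjusted p = 0.0435) and Igf1r (0.71, adjusted p = 0.0425) passed. The Igfbp4 call was lost without mouse 3 (1.29, adjusted p = 0.07) or mouse 4 (1.09, adjusted p = 0.0772) and the Igfbp6 call without mouse 3 (-1.50, adjusted p = 0.0586), and after subtraction none of the 4 was called, with Igfbp4 turned in direction. For EC and for IPFc, 0 of 9 members differed by edgeR and 0 by DESeq2, at backgrounds of 0.0163% and 0.0218% of all genes called by edgeR. An unadjusted p under 0.05 was found for 2 and 1 members, and the share of all genes at that threshold was not computed.

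Beyond the members, 54 other genes of the pathway in 5 lists were examined, of which 51 were tested in each fraction. In fibroblast libraries 5 were called with EC (3 higher, 2 lower), 1 with IPFc (higher) and 11 with TGF-β (3 higher, 8 lower), or 9.8% of those tested with EC and 21.6% with TGF-β against 7.11% and 19.2% of all genes, and 1 of 51 with IPFc against 0.449%. In epithelial libraries 4 were called with EC (2 higher, 2 lower), 5 with IPFc (3 higher, 2 lower) and 22 with TGF-β (14 higher, 8 lower), or 7.84%, 9.8% and 43.1% against 4.41%, 4.1% and 41.1% of all genes. With EC in fibroblast libraries and with TGF-β in both, the share was thus near that of all genes. Of the 7 proteases of binding proteins and their inhibitors, 4 were called with EC and 5 with TGF-β in fibroblast libraries, and of 22 genes of PI3K, AKT and mTOR signaling 1 and 3 were called (4.55% and 13.6%). The lists were not tested against each other or against all genes. The alternative settings, such as subtraction of the share or leaving out a mouse, were evaluated for the members only. Calls of the other pathway genes were not checked in this way.

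The inhibitors of PAPP-A moved as well. Stc1 was at 13.9, 11.8, 13.6 and 7.64 CPM with EC, 8.06, 8.39, 11.0 and 6.20 CPM with IPFc and 3.23, 4.10 and 2.63 CPM with vehicle in fibroblast libraries, and neither treated group overlapped with vehicle. The log2 changes were 1.82 ± 0.23 with EC (adjusted p = 0.000279) and 1.33 ± 0.23 with IPFc (adjusted p = 0.0115). The highest epithelial Stc1 level in any library was 5.20 CPM, below every EC and IPFc fibroblast library. Stc1 was also higher in epithelial libraries with TGF-β (1.32 ± 0.35, adjusted p = 0.0048). Stc2 was higher with EC (1.71 ± 0.28, adjusted p = 0.00174) and lower with TGF-β (-1.49 ± 0.30, adjusted p = 0.00151) in fibroblast libraries, but with 60.2 ± 10.4 CPM (SD, n = 4) in epithelial and 8.69 ± 1.76 CPM (n = 3) in fibroblast vehicle libraries it changed in the order of the epithelial share. In epithelial libraries themselves Stc2 fell with TGF-β to 24.1 ± 5.32 CPM (n = 3; -1.37 ± 0.10, adjusted p = 1.58e-09).

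Among the proteases, Pappa2, a relative of Pappa that cuts IGFBP3 and IGFBP5, fell with TGF-β in fibroblast libraries, opposite to Pappa, from 6.30 ± 0.863 (SD, n = 3) to 2.31 ± 0.450 CPM (n = 4; -1.38 ± 0.30, adjusted p = 0.00243). The part of the epithelial share in the Pappa2 fall was not tested. Adam12, which also cuts IGFBP3 and IGFBP5, rose with TGF-β in both fractions, to 47.0 ± 9.38 CPM (n = 4) in fibroblast (1.90 ± 0.28, adjusted p = 7.23e-05) and to 98.7 ± 10.4 CPM (n = 3) in epithelial libraries (3.69 ± 0.18, adjusted p = 4.24e-12). Its epithelial mean with TGF-β was above the fibroblast mean. Adamts1 fell with TGF-β in fibroblast libraries from 199 ± 9.94 to 56.3 ± 15.7 CPM (-1.78 ± 0.19, adjusted p = 1.65e-06), with 26.8 ± 1.63 CPM in epithelial vehicle libraries. Adam28, in contrast, was mainly epithelial (55.5 ± 13.0 CPM with vehicle, n = 4) and in fibroblast libraries was higher with EC (1.22 ± 0.33, adjusted p = 0.0365) and lower with TGF-β (-3.35 ± 0.43, adjusted p = 1.5e-05), again in the order of the epithelial share. Htra1, a secreted protease, rose with TGF-β in epithelial libraries (1.76 ± 0.16, adjusted p = 1.63e-08) to 189 ± 22.7 CPM (n = 3), a level like that of the fibroblast TGF-β libraries (187 ± 28.5, n = 4).

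Of the signaling genes, Grb14 and Socs3, which restrain receptor signaling, fell with TGF-β in fibroblast libraries, Grb14 from 27.7 ± 3.89 (n = 3) to 8.43 ± 1.05 CPM (n = 4; -1.67 ± 0.16, adjusted p = 4.52e-07) and Socs3 from 222 ± 12.7 to 85.3 ± 20.05 CPM (-1.36 ± 0.14, adjusted p = 1.24e-06). Grb14 was higher in epithelial vehicle libraries, at 55.9 ± 7.23 CPM (n = 4), whereas Socs3 was lower there, at 53.4 ± 6.61 CPM. In epithelial libraries with TGF-β, Lrp1, an endocytic receptor that also binds IGFBP3, rose (2.50 ± 0.23, adjusted p = 2.11e-08), as did Hmga2 (2.59 ± 0.18, adjusted p = 5.1e-10), a regulator of Igf2bp2, and Igf2bp3 (2.93 ± 0.25, adjusted p = 6.03e-09), which binds Igf2 mRNA. All 3 were at higher levels in fibroblasts, with 569 ± 26.1 against 2254 ± 416 CPM for Lrp1 in the TGF-β libraries, 291 ± 25.4 against 907 ± 48.5 CPM for Hmga2 and 17.0 ± 1.61 against 50.4 ± 7.32 CPM for Igf2bp3, and the part of the share of fibroblast RNA in these rises was not tested.

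Across the 15 fibroblast libraries, the genes most like each called member in log2 CPM were named by Pearson's r, as a description over libraries that share treatments, mice and the epithelial share. Itsn1 (r = 0.978), Col12a1 (0.969) and Creb3l2 (0.969) were most like Pappa, and Ttll11 (0.966), Tgfb1 (0.960) and Lef1 (0.955) most like Igfbp7. Tmem150a (0.932), Abcd4 (0.925) and P3h4 (0.923) were most like Igfbp4. For Igfbp3 they were Chd1l (0.950), 1810008I18Rik (0.949) and Rdh10 (0.948), and for Igf1r BC034090 (0.935), Lrrc32 (0.933) and Gm49405 (0.932).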

How the data were processed

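Bulk RNA was sequenced from 30 libraries of 2 sorted cell fractions under 4 treatments. The authors deposited raw read counts per gene as whole numbers, with no normalization. Per the labels, the libraries were directional and the submitters' processing notes name Trimmomatic 0.30 and DESeq2 1.34.0. The aligner and the counting program are not given in the sources used here. The study's methods name the build GRCm38 and the labels GRCm39, so coordinates are those of GRCm38.p6 and not of the count table.

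Samples were grouped by the fraction, treatment and mouse in the labels. Mice are the replicates, whereas the fibroblasts are 1 cell line, so that p-values for fibroblast libraries measure the spread between cultures. Genes whose raw counts averaged 1 or more were tested with edgeR 4.0.16 in R 4.3.3 (TMM scaling, quasi-likelihood test, Benjamini-Hochberg adjustment over all tested genes, called at an adjusted p under 0.05). Each fraction was fitted over its 15 libraries with the mouse as a block, as in the paired tests of the study. Comparisons between fractions used all 30 libraries with the culture (mouse and treatment) as a block. The pairing comes from the mouse in the labels. Deviations from the group means of same-mouse libraries correlated at 0.245 on average in fibroblast (-0.179 to 0.562) and 0.213 in epithelial libraries (-0.00808 to 0.497), against -0.0804 and -0.0696 for different mice.

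The share of RNA of the other fraction was the median CPM ratio over that fraction's markers with at least 50 CPM in the library of the same culture. The fibroblast TGF-β library of mouse 1 and the epithelial vehicle library of mouse 2 lacked a partner and were set against the mean of the other mice. CPM per kb used exon-union lengths. Depth ranged from 5113828 to 20317181 counts, and floors of 3 counts cover counting error only.

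The genes, lists and tests were chosen with earlier results of these data known. Named were the 10 members, genes of the 5 pathway lists called with an absolute log2 change over 1 against vehicle, and the 3 genes most correlated with each member called in a fibroblast comparison against vehicle. The procedure was tested on simulated data. The simulated counts held no differences between mice and no RNA of the other fraction, so this test could not probe either. Alternatives were no count filter or a mean of 10, DESeq2 size factors, DESeq2 1.42.0, other blocks or separate fits, leaving out each mouse, subtraction of the share and, chosen after seeing the data, leaving out the fibroblast EC library of mouse 1.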

Additional observations from a re-analysis of the deposited data

Results flagged for a closer look

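In 5 of 55 groups of 4 libraries, 1 library lay far from the other 3. No chance rate is set beside this count, because the groups share libraries and some hold counts near 0. Igfbp4 was at 90.3 CPM in the epithelial EC library of mouse 4 and Igfbp7 at 96.1 CPM in the fibroblast EC library of mouse 3. The former library had long transcripts low against short ones (-0.44 on the log2 scale). Pappa was low, at 7.98 CPM, in the fibroblast IPFc library of mouse 4. Igfbp2 was at 0.108 CPM in the fibroblast EC library of mouse 4 and at 0.119 CPM in the fibroblast IPFc library of mouse 3, each 2 counts against 0 in the others. Any count above 0 in a single library of such a group would have been flagged.

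The response to TGF-β differed between the fractions for 4 members, tested as an interaction in edgeR. The epithelial minus the fibroblast log2 change was 3.68 for Igfbp3, 3.34 for Pappa, 1.22 for Igfbp4 and -1.81 for Igfbp6. The share of RNA of the other fraction moved with this comparison in both fractions.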

How the results depend on the processing

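Counts of called members kept within 1.5 times of the reported count under DESeq2, DESeq2 size factors and a mean count of 10. The mouse as a replicate block mattered: without it the calls went from 3 to 0 for fibroblast EC, from 2 to 1 for epithelial IPFc and for fibroblast IPFc against EC, and from 4 to 7 for the TGF-β interaction, which was also 7 with the mouse instead of the culture as the block. A separate fit of the 2 treatments left 1 call for fibroblast IPFc against EC, and no count filter gave 1 for the EC interaction. Leaving out each mouse gave 0 to 2 calls for fibroblast EC, 0 to 1 for fibroblast IPFc, 3 to 4 for fibroblast TGF-β, 2 to 4 for epithelial EC, 1 to 2 for epithelial IPFc, 7 to 8 for epithelial TGF-β, 3 to 5 for IPFc against TGF-β, 6 to 7 for EC against TGF-β, 0 to 2 for IPFc against EC, 5 to 6 for the fractions under vehicle and 2 to 4 for the TGF-β interaction. Without the fibroblast EC library of mouse 1, fibroblast IPFc had 1 call and the TGF-β interaction 7. Subtracting the share of the other fraction left 0 calls for fibroblast EC, epithelial EC, epithelial IPFc, IPFc against EC and the TGF-β interaction, 1 each for fibroblast TGF-β and IPFc against TGF-β, and 2 for EC against TGF-β. It reversed Igfbp4 in epithelial libraries with IPFc (-1.995) and TGF-β (-2.21) and in the TGF-β interaction (-4.11). The subtraction adds the error of the share to every gene and tests fewer counts. It can also remove too much. Igfbp3 lay under the carried amount in 14 of 14 fibroblast libraries, Igf1 in 10 and Pappa in 9 of 14 epithelial libraries. Igfbp6 did so in 2 of the 3 epithelial TGF-β libraries. A call lost after subtraction therefore does not show that the member was unchanged. Other causes were not tested. Low counts limit Igf2, Igfbp2 and Igfbp5.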
